A study of Mus musculus with 8 samples.

Results

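The genes described here encode the proteasome and the class I antigen processing machinery of the mouse. They were taken as a list of 34 gene symbols, of which 33 had a value among the 36806 gene identifiers of each deposited table. The list holds the 14 constitutive subunits of the 20S core, the 5 immunoproteasome genes Psmb8, Psmb9, Psmb10, Psme1 and Psme2, the other activators Psme3 and Psme4, the class I genes H2-K1, H2-D1, H2-T23 and B2m, 5 genes of peptide transport, editing and trimming, the transactivator Nlrc5 and 3 ER chaperones. The question was how the constitutive subunits compare with the immunoproteasome and class I loading genes. Psmb9 could not be matched, because its annotated identifier was not among those of the tables, and no value is given for it.

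RNA came from macrophages that had been grown for 7 days from the bone marrow of C57BL/6 mice in medium conditioned by L929 cells, a fibroblast line that secretes the macrophage growth factor CSF1. 1 library was untreated and 7 were made after 4 h with a single agent. IFNg (interferon gamma) was given at 100 ng/ml. IL4 (interleukin 4), TNFa (tumour necrosis factor) and IL1b (interleukin 1 beta) were each given at 10 ng/ml. TGFb1 (transforming growth factor beta) and MALP2, a lipopeptide sensed by TLR2 with TLR6, were given at 1 ng/ml. CpG DNA, which is sensed by TLR9, was given at 100 nM. All 8 groups share the strain, the medium and the absence of a genetic change. With 1 library per group nothing could be tested against replicate error, and no p-value was computed. All 7 comparisons share the untreated library.

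The proteasome is a barrel of stacked alpha and beta rings that cuts ubiquitinated proteins into peptides. Interferon can replace its catalytic beta subunits with immunoproteasome subunits, which change the cuts toward peptides that bind class I molecules. Those peptides are pumped into the endoplasmic reticulum by TAP, loaded onto class I heavy chains held by tapasin and chaperones, and shown to CD8+ T cells with beta-2 microglobulin. In macrophages this route reports infection to T cells, and the NLR protein Nlrc5 is the main transactivator of its genes.

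Values are FPKM, fragments scaled to transcript length and to the library's total. Levels in the 8 libraries were brought to 1 scale through the untreated values that all 7 tables repeat. A change is log2 of (stimulated FPKM + 1) over (untreated FPKM + 1) within a table, and a gene was counted as higher or lower when this was at least 1 in size, a 2-fold difference, and either library had at least 1 FPKM. Bounds are the lower and upper confidence limits that the authors gave for each FPKM, at a level the tables do not state, and they do not measure the spread between cultures. Absolute depth is unknown. The smallest values show the IFNg library to be the shallowest: 1 read there is worth 2.04 times the FPKM it is worth untreated, against 1.05 to 1.44 times elsewhere. The median gene with at least 1 FPKM in both libraries lay between -0.10 (CpG) and -0.071 (TGFb1) on the log2 scale. In bulk RNA, fewer cells of a type and less RNA per cell cannot be told apart. Of the macrophage markers, 7 of 8 had a usable value, each at 1 FPKM or more, with a summed level of 4921 FPKM untreated and 3902 to 5986 FPKM stimulated. All 10 T and NK cell markers stayed below 1 FPKM in all 8 libraries. B cell markers summed to 236 FPKM untreated, 37.9 FPKM after IFNg and up to 72.2 FPKM after the other stimuli, with 3 of 7 at 1 FPKM or more in at least 1 library, and Cd79a, Ms4a1 and Pax5 among those below it throughout. Neutrophil markers (8 of 8 at 1 FPKM or more in at least 1 library, though Retnlg was listed at 0 after IL4) summed to 239.9 FPKM untreated, 376 FPKM after IFNg and 141 FPKM after IL4. Dendritic cell markers (3 of 8 by the same rule) summed to 486 FPKM untreated, 647 FPKM after IFNg and 231 FPKM after IL4, of which Bst2, which macrophages also express, made up 484, 643 and 229 FPKM, with Flt3, Zbtb46, Xcr1, Siglech and Itgae below 1 FPKM throughout. Stromal markers (5 of 7 by the same rule) summed to 41.2 FPKM untreated and 87.4 FPKM after IFNg, with 40.7 to 48.1 FPKM after the other stimuli. Neutrophil and stromal sums and Bst2 were thus highest after IFNg, the B cell sum was lowest there, and the neutrophil sum and Bst2 were lowest after IL4. The part of these cells in the results below was not tested.

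Of the 14 measured immunoproteasome and class I genes, 9 were at least 2-fold higher after IFNg, 6 at least 2-fold lower after IL4 and 6 at least 2-fold lower after TGFb1. In those 3 libraries 0 of the 14 constitutive 20S subunits passed on the FPKM + 1 scale. The constitutive subunit Psma3 came close after IFNg: without the added 1 FPKM its ratio was 2.04, and with 0.1 FPKM added the IFNg count was 10 in place of 9. After IFNg 9 of 33 genes were at least 2-fold higher, where 10.7% of all 12813 genes tested were, and 0 were lower, where 12.7% of all genes were. The 9 were Nlrc5, Tap1, Tap2, Tapbp, Tapbpl, H2-T23, Psmb8, Psmb10 and Psme2. After IL4 6 were lower (H2-K1, H2-T23, Tap1, Tapbp, Tapbpl and Nlrc5), against 11.9% of all genes, and Psme3 alone was higher, against 9.86%. After TGFb1 6 were lower (Psmb10, H2-T23, Tap1, Tapbp, Tapbpl and Nlrc5), against 9.15% of all genes, and Psme3 alone was higher, against 7.15%.

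The other 4 stimuli gave fewer calls, and most of these were proteasome subunits or activators. After TNFa Psma6, Psme2 and Psme3 were higher, 3 of 33 against 8.92% of all genes, and 0 were lower, against 10.4%. After MALP2 Psma6, Psmb5, Psme2 and Psme3 were higher, 4 of 33 against 9.53%, and 0 were lower, against 11.7%. After CpG Psma6 and Psme3 were higher, 2 of 33 against 9.43%, and 0 were lower, against 11.2%. After IL1b Psma6 and Psme3 were higher, 2 of 33 against 7.29% of all genes, and H2-T23 and Nlrc5 were lower, 2 of 33 against 8.57%. In these 4 comparisons the share of genes called was near the background or below it, which is no result about the genes as a group. Over all 7 comparisons 36 of 231 gene-by-comparison pairs were at least 2-fold apart, where 19.8% of all pairs were. Of these 22 carried the significance call of the authors' deposited table, against 13.8% of all pairs, and 18 had bounds that did not overlap, against 11.5%. With all stimuli together these genes were thus not called more often than other genes. With the authors' call also required, 2 of 33 genes were lower after IL4, against 8.14% of all genes, and 3 after TGFb1, against 6.58%. With bounds apart required, 2 were lower after IL4, against 6.57%, and 2 after TGFb1, against 5.71%, so the lower counts of IL4 under both rules, and of TGFb1 under the second, were near the background or below it. The IFNg count was 5 under either rule, against 7.56% and 6.1%. Each stimulus was also set against the median over its 6 stimulated companions, which leaves the untreated library out. Over both directions of all 7 comparisons, 6.25% of all pairs were then 2-fold apart. By that reference 9 of 33 genes were higher after IFNg, where 7.72% of all genes were. After IL4 6 were lower, against 5.87%, and 1 was higher, against 4.88%. After TGFb1 6 were lower, against 4.03%, and after IL1b 1 was lower, against 1.12%. After MALP2 1 was higher, against 3.24%, and after CpG 1 was higher, against 3.65%. After TNFa 0 were called, where 1.6% of all genes were higher and 0.837% lower. The genes called by this reference were in part not those called against untreated. After IFNg Psme1 was called in place of Psme2. After IL4 Psme2 was lower in place of H2-T23, and the higher gene was Psme4 in place of Psme3. After TGFb1 Psme2 and Tap2 were lower in place of H2-T23 and Tapbp. The lower gene after IL1b was Tap2, in place of H2-T23 and Nlrc5.

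**Figure D1:**
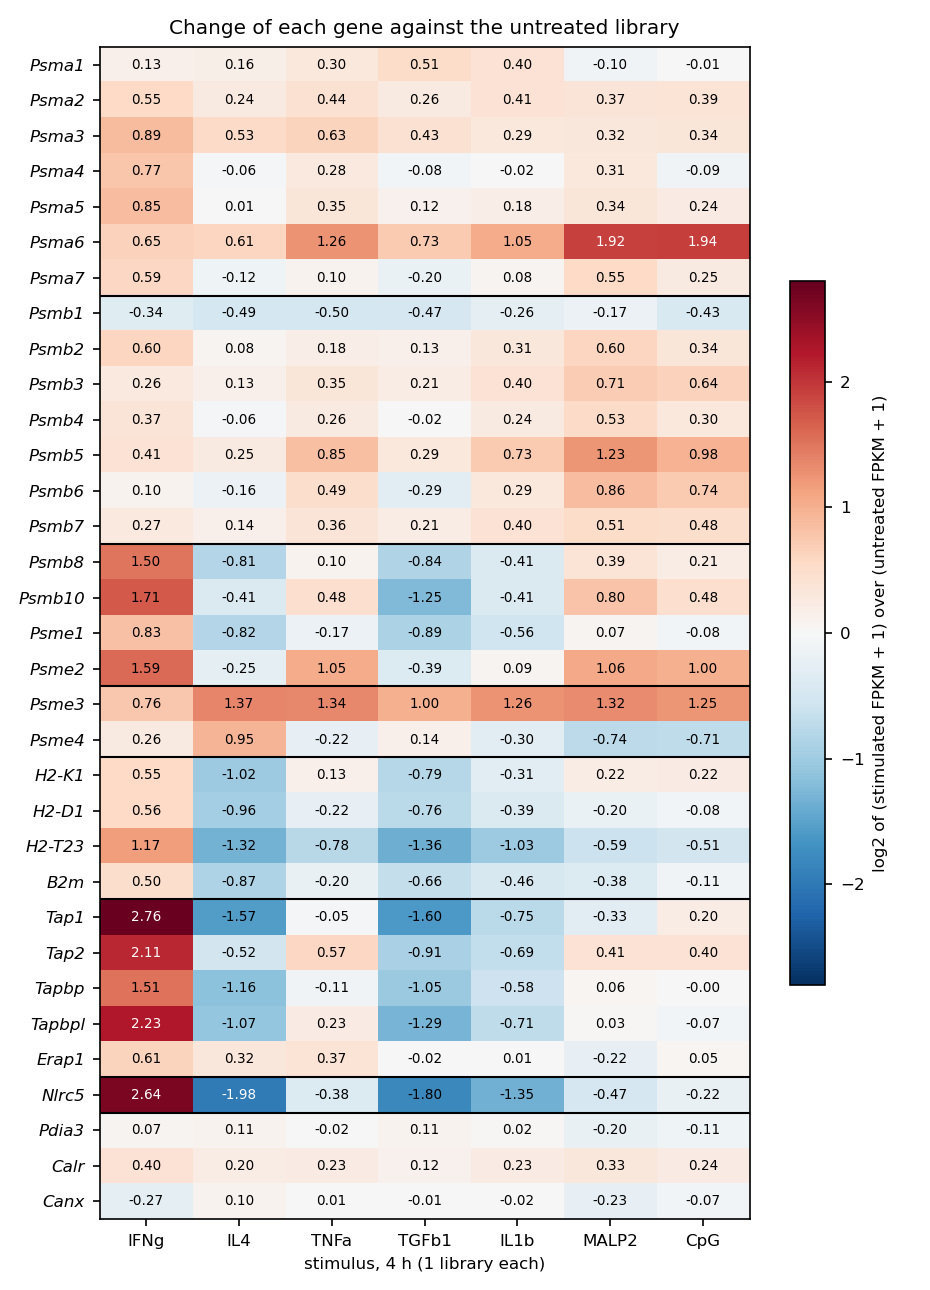
Log2 change of (FPKM + 1) against untreated for the 33 genes (rows, grouped by role between black lines) after each of the 7 stimuli (columns, 1 library each), with the value printed in each cell. Red is higher and blue is lower, and the largest value is 2.76 for Tap1 after IFNg.

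As a group, the 14 measured immunoproteasome and class I genes had a median log2 change of 1.51 after IFNg, -0.92 after IL4, -0.90 after TGFb1, -0.51 after IL1b, 0.02 after TNFa, 0.05 after MALP2 and 0.02 after CpG. The 14 constitutive 20S subunits had medians of 0.48, 0.11, 0.17, 0.30, 0.35, 0.52 and 0.34 in the same order. The median of all genes tested lay between -0.12 and -0.08 in the 7 comparisons. After IFNg all 14 immunoproteasome and class I genes were above 0, from 0.50 to 2.76, where 43.5% of all genes were. After TGFb1 all 14 were below 0, from -1.80 to -0.02, where 55.2% of all genes were. After IL4 13 of 14 were below 0, with Erap1 at 0.32, where 56.1% of all genes were. The constitutive medians for IL4 and TGFb1 changed sign against the median of the other 6 stimulated libraries, to -0.25 and -0.18, whereas the immunoproteasome and class I medians were then -0.95 and -0.996. For IFNg that reference gave 1.62 for the immunoproteasome and class I genes and 0.11 for the constitutive subunits. For TNFa, MALP2 and CpG it gave 0.28, 0.35 and 0.33 for the immunoproteasome and class I genes. The constitutive medians were then 0.10, 0.31 and 0.075. The order of the group medians was thus reversed for TNFa and CpG, and for MALP2 the 2 medians were nearly equal. For these stimuli the order depends on the untreated library.

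**Figure D2:**
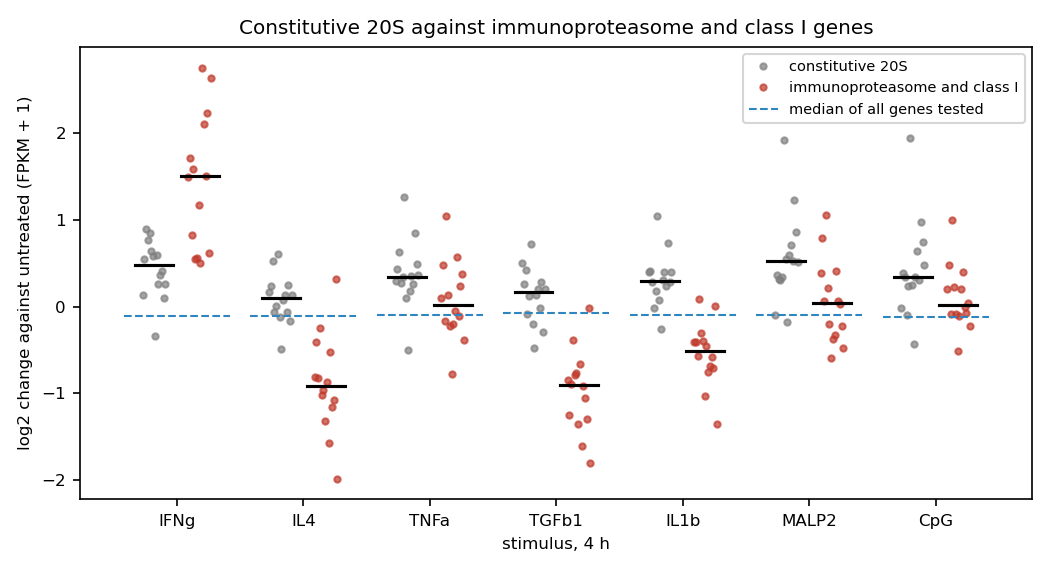
Each point is the log2 change of (FPKM + 1) of 1 gene against untreated, for the 14 constitutive 20S subunits (grey) and the 14 immunoproteasome and class I genes (red). Black lines are group medians and dashed blue lines the median of all genes tested. Against untreated, the red median lies above the grey one after IFNg and below it after the other 6 stimuli. With the other 6 stimulated libraries as reference, not drawn, that order was reversed for TNFa and CpG, and the 2 medians were nearly equal for MALP2.

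The order of the libraries was shared across the immunoproteasome and class I genes. IFNg was the highest of the 8 libraries for 14 of 14, as it was for 15.8% of the 13467 genes ranked. IL4 and TGFb1 were the 2 lowest libraries for 11 of 14, as they were for 11.1% of all genes, and both statements held for 11 of 14, as for 3.27% of all genes. The exceptions were Psmb10 and Tap2, in which the IL1b level lay below the IL4 level, and Erap1. Among the 14 constitutive subunits IFNg was highest for 6, MALP2 was highest for 5 (12.6% of all genes), and untreated was lowest for 8 (20.6% of all genes).

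Promoter sequence is shown because many of these genes differed from untreated together, so that the stretches of DNA before their starts can be set beside the values. Windows came from RefSeq in the build GRCm38.p6 and were found for 28 of the 34 genes, not for Psmb1, Psmb2, Psmb7, Tap2, Tapbpl and Nlrc5. Each line holds the 250 bases before the annotated start, 5' to 3' on the gene's strand. Capitals mark matches, on either strand, to the interferon-stimulated response element (GAAA, any 2 bases, GAAA), the gamma-activated site (TTCNNNGAA), the NF-kB consensus or the antioxidant response element (TGACNNNGC), the last being bound by the Nrf factors. The windows are chr2:122147437-122147686 on the plus strand for B2m, chr17:34000348-34000597 on the minus strand for H2-K1, chr17:34197945-34198194 on the plus strand for Psmb8, chr17:34187306-34187555 on the plus strand for Tap1 and chr14:54617996-54618245 on the minus strand for Psmb5.
B2m: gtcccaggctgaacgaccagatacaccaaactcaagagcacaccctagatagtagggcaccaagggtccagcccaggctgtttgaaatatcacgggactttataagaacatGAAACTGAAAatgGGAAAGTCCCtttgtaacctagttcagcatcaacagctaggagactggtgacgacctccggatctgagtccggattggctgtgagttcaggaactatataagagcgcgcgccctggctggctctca
H2-K1: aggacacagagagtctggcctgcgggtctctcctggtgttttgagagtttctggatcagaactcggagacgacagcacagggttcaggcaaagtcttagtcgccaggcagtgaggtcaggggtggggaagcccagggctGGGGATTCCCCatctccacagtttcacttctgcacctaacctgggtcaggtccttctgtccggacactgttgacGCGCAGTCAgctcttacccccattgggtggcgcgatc
Psmb8: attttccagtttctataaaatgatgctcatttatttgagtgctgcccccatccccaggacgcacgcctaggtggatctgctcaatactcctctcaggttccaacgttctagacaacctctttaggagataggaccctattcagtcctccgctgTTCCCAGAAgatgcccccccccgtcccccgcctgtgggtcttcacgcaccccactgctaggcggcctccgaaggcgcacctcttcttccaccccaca
Tap1: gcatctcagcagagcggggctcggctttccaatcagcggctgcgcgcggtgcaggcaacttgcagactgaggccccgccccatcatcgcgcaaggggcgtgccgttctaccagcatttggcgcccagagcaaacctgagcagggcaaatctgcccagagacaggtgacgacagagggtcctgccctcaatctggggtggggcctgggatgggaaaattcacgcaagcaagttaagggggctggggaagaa
Psmb5: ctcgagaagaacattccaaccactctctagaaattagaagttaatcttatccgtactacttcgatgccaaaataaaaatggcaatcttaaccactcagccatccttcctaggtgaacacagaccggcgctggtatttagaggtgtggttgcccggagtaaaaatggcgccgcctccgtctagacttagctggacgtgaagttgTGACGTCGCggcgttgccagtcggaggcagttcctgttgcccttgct

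A match is a description of the letters and neither a site nor a cause. Only the exact patterns were searched, so a window without a match may still hold an element that differs from them by a base. B2m held the interferon element 139 to 130 bases before its start and the NF-kB consensus 126 to 117 bases before it. H2-K1 held 2 overlapping NF-kB matches between 111 and 101 bases before its start, and an antioxidant element at 37 to 29 bases. Psmb8 held a gamma-activated site 97 to 89 bases before its start, and Psmb5 an antioxidant element at 47 to 39 bases. The Tap1 window held none of the 4 motifs, nor did those of Psmb10, Psme1 and Psme2. Over the 12 immunoproteasome and class I genes with a window, 2 held the interferon element (H2-T23 and B2m), 1 the gamma-activated site, 3 the NF-kB consensus (H2-K1, H2-D1 and B2m) and 1 the antioxidant element. Of all 27025 genes with a window, 3.46% held the interferon element, 8.13% the gamma-activated site, 4.46% the NF-kB consensus and 11.5% the antioxidant element. Of 11 constitutive subunits, 1 held the interferon element (Psmb3) and 2 the antioxidant element (Psmb5 and Psmb6). Tap1 and Psmb9 are read in opposite directions from starts 226 bases apart, so their windows overlap.

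Nlrc5, the NLR family protein that switches on class I genes, had the widest range of the 33. It stood at 19.5 FPKM untreated, 127 FPKM after IFNg, 4.22 FPKM after IL4, 14.7 FPKM after TNFa, 4.91 FPKM after TGFb1, 7.04 FPKM after IL1b, 13.8 FPKM after MALP2 and 16.6 FPKM after CpG. IFNg was far above the other 7 libraries, and the highest library was 30.1 times the lowest. The fold was 6.23 higher after IFNg, 3.95 lower after IL4, 3.48 lower after TGFb1 and 2.55 lower after IL1b, each with bounds that did not overlap. The authors' deposited table called all 4, with q-values of 2.37e-08 for IFNg and 0.00042 for IL1b. The TNFa, MALP2 and CpG changes of Nlrc5 lay between -0.47 and -0.22 and were under 2-fold.

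The genes of peptide transport and loading followed. Tap1, 1 of the 2 chains of the TAP peptide pump, stood at 82.2 FPKM untreated, 563 FPKM after IFNg, 27.0 FPKM after IL4, 79.2 FPKM after TNFa, 26.4 FPKM after TGFb1, 48.4 FPKM after IL1b, 65.4 FPKM after MALP2 and 94.9 FPKM after CpG. The fold was 6.77 higher after IFNg, 2.98 lower after IL4 and 3.04 lower after TGFb1, and bounds did not overlap in any of these 3. Tap2, the partner chain, stood at 44.5 FPKM untreated, 195 FPKM after IFNg, 30.8 FPKM after IL4, 66.7 FPKM after TNFa, 23.2 FPKM after TGFb1, 27.3 FPKM after IL1b, 59.5 FPKM after MALP2 and 59.1 FPKM after CpG. It was 4.31-fold higher after IFNg, with the bounds apart, and under 2-fold away in the other 6. The FPKM of Tap1 over that of Tap2 was 1.85 untreated, 2.88 after IFNg and 0.878 after IL4, and the ranges allowed by the bounds overlapped (0.832 to 4.79, 1.25 to 8.39 and 0.4203 to 1.98).

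Tapbp encodes tapasin, which holds empty class I molecules at TAP, and Tapbpl encodes TAPBPR, a second peptide editor. Tapbp stood at 216 FPKM untreated, 617 FPKM after IFNg, 96.1 FPKM after IL4, 200.1 FPKM after TNFa, 104 FPKM after TGFb1, 144 FPKM after IL1b, 225 FPKM after MALP2 and 215 FPKM after CpG. Tapbpl stood lower, at 14.2 FPKM untreated, 70.9 FPKM after IFNg, 6.27 FPKM after IL4, 16.9 FPKM after TNFa, 5.23 FPKM after TGFb1, 8.32 FPKM after IL1b, 14.6 FPKM after MALP2 and 13.5 FPKM after CpG. Both were highest after IFNg and lowest after IL4 or TGFb1. The IFNg fold was 2.85 for Tapbp, with overlapping bounds, and 4.70 for Tapbpl, with bounds apart. Tapbpl shares its assembled locus with Cd27 and Vamp1, and reads of overlapping genes cannot be separated here. Erap1, the aminopeptidase that trims peptides in the ER, ranged from 15.0 FPKM (MALP2) to 27.7 FPKM (IFNg) and was under 2-fold from its untreated 17.7 FPKM throughout.

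The class I molecules were among the most abundant transcripts. B2m, the light chain of every class I molecule, ranked 29 among all genes untreated at 5245 FPKM, and stood at 7428 FPKM after IFNg, 2869 FPKM after IL4, 4559 FPKM after TNFa, 3315 FPKM after TGFb1, 3823 FPKM after IL1b, 4042 FPKM after MALP2 and 4875 FPKM after CpG. H2-K1, a classical heavy chain, stood at 1042 FPKM untreated, 1532 FPKM after IFNg, 513 FPKM after IL4, 1143 FPKM after TNFa, 603 FPKM after TGFb1, 842 FPKM after IL1b, 1211 FPKM after MALP2 and 1218 FPKM after CpG. H2-D1, the other classical heavy chain, ran from 977 FPKM (IL4) to 2805 FPKM (IFNg), with 1902 FPKM untreated. In all 3 genes IFNg was highest and IL4 lowest. Of their 21 changes, that of H2-K1 after IL4 alone reached 2-fold (2.03-fold lower), and its bounds overlapped. The heavy chain H2-D1 stood at 0.338 (TGFb1) to 0.411 (MALP2) of the FPKM of B2m in the 8 libraries. H2-K1 stood at 0.179 (IL4) to 0.300 (MALP2) of it. For H2-D1 the bounds allowed 0.0897 to 1.297 after TGFb1 and 0.0556 to 3.06 after MALP2. For H2-K1 they allowed 0.0447 to 0.846 after IL4 and 0.0494 to 2.16 after MALP2. These ranges overlapped, so they do not separate the libraries or the 2 heavy chains.

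H2-T23 encodes the heavy chain of Qa-1, a nonclassical class I molecule that is read by NK cell receptors. It stood at 269 FPKM untreated, 606 FPKM after IFNg, 107 FPKM after IL4, 157 FPKM after TNFa, 104 FPKM after TGFb1, 131 FPKM after IL1b, 178 FPKM after MALP2 and 188 FPKM after CpG. Untreated was thus above 6 of the 7 stimulated libraries. The fold was 2.25 higher after IFNg, 2.49 lower after IL4, 2.56 lower after TGFb1 and 2.04 lower after IL1b. Bounds overlapped in all 4, and the authors' deposited table called none of them. H2-T23 shared 13.6% of the 50-base words of its transcripts with other genes, H2-D1 12.8% and H2-K1 9.63%, so reads can be split among them.

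**Figure D3:**
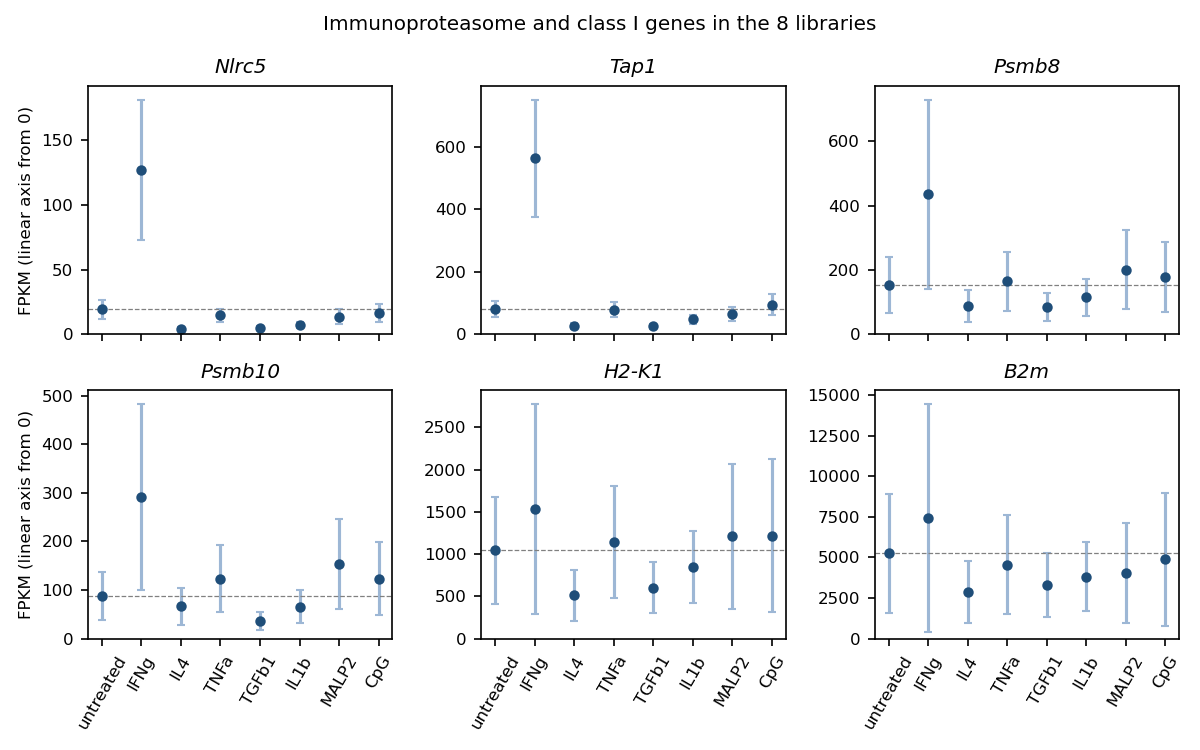
FPKM of Nlrc5, Tap1, Psmb8, Psmb10, H2-K1 and B2m in the 8 libraries, on linear axes from 0. Points are 1 library each, bars are the confidence limits the authors gave for that value, and the dashed line is the untreated level. The IFNg point is the highest in all 6 panels, clear of the other bars for Nlrc5 and Tap1.

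The immunoproteasome genes had smaller differences than Nlrc5 and Tap1. Psmb8, the inducible subunit that replaces Psmb5, stood at 153 FPKM untreated, 434 FPKM after IFNg, 86.8 FPKM after IL4, 164 FPKM after TNFa, 84.8 FPKM after TGFb1, 115 FPKM after IL1b, 201 FPKM after MALP2 and 177 FPKM after CpG. It was 2.83-fold higher after IFNg, with overlapping bounds (133 to 687 FPKM against 49.3 to 239 FPKM), and under 2-fold away in the other 6. The authors' deposited table called it in 0 of 7 comparisons. Psmb10, which replaces Psmb7, stood at 88.0 FPKM untreated, 291 FPKM after IFNg, 66.2 FPKM after IL4, 123 FPKM after TNFa, 36.6 FPKM after TGFb1, 66.1 FPKM after IL1b, 154 FPKM after MALP2 and 123 FPKM after CpG. It was 3.28-fold higher after IFNg and 2.37-fold lower after TGFb1, and bounds overlapped both times. Its assembled locus also holds Slc12a4, Lcat and Gm16156.

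Tap1, Psmb8 and Tap2 lie side by side on chromosome 17, at mm9 positions 34318931 to 34334170, 34335139 to 34338399 and 34341024 to 34353266, where the deposited tables place the assembled loci. An identifier with no symbol in the annotation used, ENSMUSG00000024337, was assembled in the same locus as Tap1. It stood at 55.2 FPKM untreated, 201 FPKM after IFNg, 20.8 FPKM after IL4, 45.4 FPKM after TNFa, 18.9 FPKM after TGFb1, 27.5 FPKM after IL1b, 45.3 FPKM after MALP2 and 43.7 FPKM after CpG. No source used here names its gene, and it was not counted among the 33. Psmb9 starts beside Tap1, and whether these values are those of Psmb9 could not be settled. The order of its libraries has IFNg highest and IL4 and TGFb1 lowest, as for Tap1.

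Psme1 and Psme2 encode the alpha and beta chains of PA28, the ring that opens the proteasome and speeds peptide release. Psme1 stood at 189 FPKM untreated, 337 FPKM after IFNg, 107 FPKM after IL4, 168 FPKM after TNFa, 101 FPKM after TGFb1, 128 FPKM after IL1b, 198 FPKM after MALP2 and 179 FPKM after CpG, and was never 2-fold from untreated. Psme2 stood at 38.3 FPKM untreated, 118 FPKM after IFNg, 32.1 FPKM after IL4, 80.3 FPKM after TNFa, 29.1 FPKM after TGFb1, 40.7 FPKM after IL1b, 81.3 FPKM after MALP2 and 77.7 FPKM after CpG. Its libraries fall into a high set of IFNg, MALP2, TNFa and CpG and a low set of the other 4, and the bounds of each high library lay above those of untreated. The fold was 3.01 after IFNg, 2.07 after TNFa and 2.09 after MALP2, and its log2 change after CpG was 1.00, just under the threshold. The authors' deposited table called Psme2 in these 4 comparisons, with q-values of 7.3e-05, 0.01003, 0.0142 and 0.0212. Psme2 shared 28.3% of its 50-base words with Psme2b and Gm7928, and its level is uncertain to that extent. Psme2 over Psme1 was 0.202 untreated and 0.287 (TGFb1) to 0.477 (TNFa) stimulated, with ranges from the bounds that overlapped throughout.

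Ratios of inducible to constitutive catalytic subunits were taken within a library, since FPKM is per length. Psmb8 over Psmb5 was 2.55 untreated, 5.42 after IFNg, 1.22 after IL4, 1.51 after TNFa, 1.15 after TGFb1, 1.14 after IL1b, 1.41 after MALP2 and 1.48 after CpG. It was thus 2.13 times the untreated ratio after IFNg and below it in the other 6. Psmb10 over Psmb7 was 0.567 untreated, 1.55 after IFNg, 0.387 after IL4, 0.617 after TNFa, 0.204 after TGFb1, 0.322 after IL1b, 0.692 after MALP2 and 0.566 after CpG. That ratio was 2.74 times untreated after IFNg and 2.79 times below it after TGFb1. After MALP2 and CpG the Psmb8 ratio was below untreated although Psmb8 itself was not, and Psmb5 was higher than untreated in both. The bounds of the 2 terms allowed 1.27 to 14.8 for Psmb8 over Psmb5 after IFNg and 0.785 to 6.32 untreated, so the ranges overlapped. For Psmb10 over Psmb7 they allowed 0.176 to 1.40 untreated, 0.382 to 4.25 after IFNg and 0.0749 to 0.448 after TGFb1, which also overlapped. The ratio of Psmb9 to Psmb6 could not be formed.

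**Figure D4:**
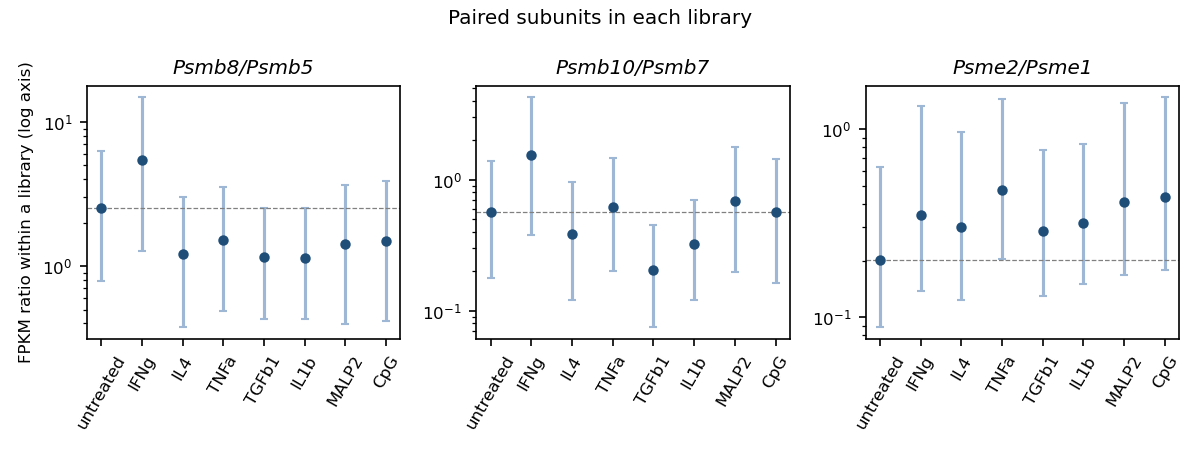
FPKM ratios of Psmb8 to Psmb5, Psmb10 to Psmb7 and Psme2 to Psme1 in each of the 8 libraries, on log axes. Bars span the lowest and highest ratio that the authors' bounds on the 2 genes allow, and the dashed line is the untreated ratio, and the IFNg ratio is the highest in the first 2 panels and TNFa in the last.

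Among the constitutive subunits Psma6 had the largest differences. This alpha ring subunit stood at 127 FPKM untreated, 199 FPKM after IFNg, 193 FPKM after IL4, 305 FPKM after TNFa, 210.0 FPKM after TGFb1, 263 FPKM after IL1b, 483 FPKM after MALP2 and 490.2 FPKM after CpG. Untreated was the lowest library and the ligands of the Toll-like receptors gave the highest. The fold was 3.79 after MALP2, 3.85 after CpG, 2.40 after TNFa and 2.07 after IL1b, with bounds that overlapped in all 4. The authors' deposited table called the MALP2 and CpG differences, with q-values of 0.0178 and 0.0177. Psma6 shared none of its 50-base words with another gene, but it is 1 of 13 of the 33 genes whose assembled locus also holds another identifier. On the FPKM + 1 scale the other 6 alpha subunits were under 2-fold from untreated in all 7 comparisons, with log2 changes from -0.20 (Psma7, TGFb1) to 0.89 (Psma3, IFNg). Psma3 was low, at 4.95 FPKM untreated and 10.1 FPKM after IFNg, a plain ratio of 2.04 that the added 1 FPKM brings to 1.86, with bounds that did not overlap. The authors' deposited table called that difference.

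In the beta ring, Psmb5 carries the chymotrypsin-like activity, Psmb6 the caspase-like and Psmb7 the trypsin-like. Psmb5 stood at 60 FPKM untreated, 80.0 FPKM after IFNg, 71.4 FPKM after IL4, 109 FPKM after TNFa, 73.5 FPKM after TGFb1, 100.4 FPKM after IL1b, 142 FPKM after MALP2 and 119 FPKM after CpG. Untreated was again the lowest, and the bounds after MALP2 (86.6 to 192 FPKM) lay above those of untreated (37.2 to 80.7 FPKM), a fold of 2.34 that the authors' deposited table called. Psmb5 shared 54.1% of its 50-base words, with Psmb5-ps and Gm3375 among the partners, so its level is uncertain. Psmb6 stood at 208 FPKM untreated, 222 FPKM after IFNg, 186 FPKM after IL4, 293 FPKM after TNFa, 169.8 FPKM after TGFb1, 254 FPKM after IL1b, 377 FPKM after MALP2 and 349 FPKM after CpG, with no change of 2-fold. The antioxidant elements of the constitutive subunits lay in the windows of Psmb5 and Psmb6, 2 of 11 genes, against 11.5% of all genes. Psmb3 and Psmb4, also highest after MALP2, held none. Whether the element has a part in these levels was not tested. Of the 7 beta subunits MALP2 was the highest library for 5. Psmb1 went the other way, from 109.6 FPKM untreated to 77.1 to 97.2 FPKM in the 7 stimulated libraries, and its changes were under 2-fold.

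**Figure D5:**
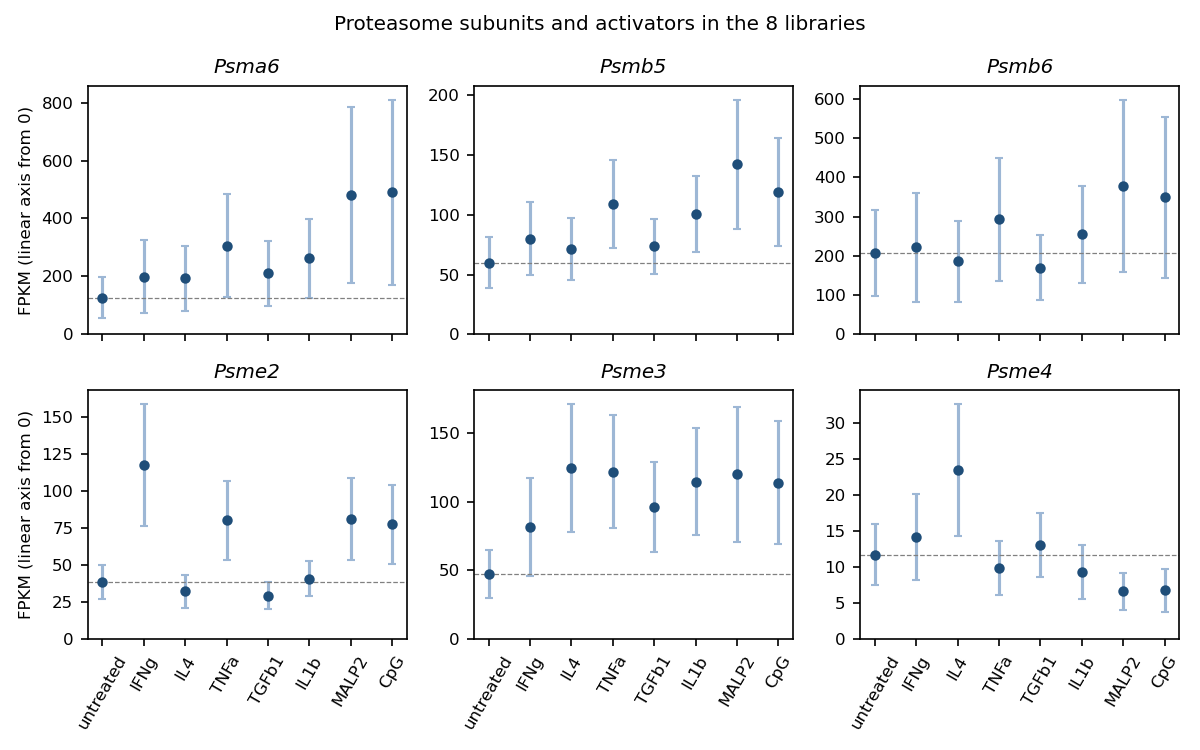
FPKM of the constitutive subunits Psma6, Psmb5 and Psmb6 and the activators Psme2, Psme3 and Psme4 in the 8 libraries, on linear axes from 0. Points are 1 library each, bars are the authors' confidence bounds and the dashed line is the untreated level, and Psma6 is highest after MALP2 and CpG, Psme3 is above untreated in all 7 stimulated libraries and Psme4 is highest after IL4.

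The other activators did not follow PA28 alpha and beta. Psme3, the PA28 gamma chain of the nuclear proteasome, stood at 47.4 FPKM untreated, 81.3 FPKM after IFNg, 124 FPKM after IL4, 122 FPKM after TNFa, 96.0 FPKM after TGFb1, 115 FPKM after IL1b, 119.8 FPKM after MALP2 and 114 FPKM after CpG. All 7 stimulated libraries were above untreated, by 2.005-fold to 2.59-fold in the 6 other than IFNg, and the authors' deposited table called those 6. The 7 comparisons share the untreated library, and against one another the 6 stimulated libraries other than IFNg lay between 96.0 and 124 FPKM. Psme3 over Psme1 ran from 0.241 (IFNg) to 1.16 (IL4), with 0.250 untreated. The ranges allowed by the bounds overlapped (0.0825 to 0.974, 0.462 to 3.79 and 0.0965 to 0.826). Psme4, the PA200 activator, stood at 11.6 FPKM untreated, 14.1 FPKM after IFNg, 23.4 FPKM after IL4, 9.83 FPKM after TNFa, 13.0 FPKM after TGFb1, 9.29 FPKM after IL1b, 6.57 FPKM after MALP2 and 6.70 FPKM after CpG. Its IL4 level was the highest and its MALP2 and CpG levels the lowest, and the log2 change after IL4 was 0.95, just outside the threshold.

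The ER chaperones of loading were nearly level. Calr (calreticulin) ranged from 713 FPKM untreated to 939 FPKM after IFNg, Canx (calnexin) from 248 FPKM (IFNg) to 322 FPKM (IL4), and Pdia3 (ERp57) from 261 FPKM (MALP2) to 324 FPKM (TGFb1). None of their 21 changes exceeded 0.40 in size. With these 3 added to the immunoproteasome and class I genes, the IFNg median was 1.17.

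Genes around the pathway gave context. Of 18 subunits of the 19S regulatory particle, the cap that unfolds substrates, 0 were 2-fold apart in 6 comparisons. In those, 7.29% to 10.7% of all genes were higher and 8.57% to 12.7% lower. After TGFb1 2 were higher, where 7.15% of all genes were: Psmd1 and Psmd12, named after their values were seen. Their log2 changes were 1.13 and 1.05 after TGFb1 and 0.99 and 0.82 after IL1b. The authors' deposited table called each of these differences. Both genes were also above untreated after every other stimulus, by 0.36 to 0.90 for Psmd1 and 0.56 to 0.76 for Psmd12. The 19S medians lay between 0.25 and 0.51. Psmd8, the 19S gene with the highest untreated FPKM, stood at 282 FPKM untreated, and between 182 FPKM (IL4) and 253 FPKM (IFNg) when stimulated. Of 8 assembly factors, Pomp, the chaperone that starts assembly of the beta ring, was the most abundant untreated at 140.5 FPKM. It reached 295 FPKM after IFNg, where it alone was 2-fold higher, and lay at 133 to 184 FPKM after the other stimuli. Psmg1 alone was higher after IL4, named after its values were seen. The tissue-restricted subunits Psma8 and Psmb11 reached at most 1.05 FPKM and 0.00445 FPKM.

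The other class I and class I-like genes had 9 of 12 lower after IL4, where 11.9% of all genes were, 4 of 12 lower after TGFb1 (9.15% of all genes), 5 of 13 lower after IL1b (8.57%) and 0 of 12 either way after IFNg. H2-Q4, the highest of them untreated, stood at 183 FPKM untreated, 327 FPKM after IFNg, 82.2 FPKM after IL4, 183 FPKM after TNFa, 97.3 FPKM after TGFb1, 126 FPKM after IL1b, 167 FPKM after MALP2 and 200.2 FPKM after CpG. After TNFa, MALP2 and CpG, H2-M2 was higher and H2-T24 and Mr1 were lower, named after their values were seen. Of 6 cytosolic peptidases, which trim or destroy peptides before TAP, Npepps was highest untreated at 53.8 FPKM and was 2-fold lower after IL4 (25.3 FPKM), TGFb1 (25.9 FPKM) and IL1b (24.4 FPKM). After IFNg Npepps stood at 27.0 FPKM, a log2 change of -0.97 that is just short of 2-fold. The authors' deposited table called all 4 of these differences. Of 8 ER folding genes outside class I loading, Hspa5 (BiP) was highest untreated at 506 FPKM and stood at 546 to 736 FPKM stimulated.

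Of 12 regulators of these genes 4 were higher after IFNg, against 10.7% of all genes. Among the 4 were Irf1 and, named after their values were seen, Irf2 and Irf8. After IL4 7 of 12 were lower, against 11.9%, and after TGFb1 4 of 11, against 9.15%. After MALP2 1 of 12 was lower, against 11.7%, which is no result about the regulators as a group. After TNFa, IL1b and CpG 0 were called, where 7.29% to 9.43% of all genes were higher and 8.57% to 11.2% lower. The authors' deposited table called Stat2 (log2 change -1.26) and Rfx5 (-0.77) lower after MALP2. It also called Stat2 (-0.99) lower after IL1b. Stat2 was named after its values were seen. Irf1, a transcription factor that binds interferon elements, stood at 80.3 FPKM untreated, 1748 FPKM after IFNg, 27.9 FPKM after IL4, 79.4 FPKM after TNFa, 24.3 FPKM after TGFb1, 79.4 FPKM after IL1b, 45.6 FPKM after MALP2 and 64.2 FPKM after CpG. Rfx5, a partner of Nlrc5 on class I promoters, stood at 10.4 FPKM untreated, 10.8 FPKM after IFNg, 3.13 FPKM after IL4, 4.44 FPKM after TGFb1 and 5.72 to 9.56 FPKM in the other 4. Irf1 and Rfx5 were thus both 2-fold lower after IL4 and TGFb1, whereas Rfx5 was level after IFNg. Nfe2l1, the factor that raises proteasome genes when the proteasome is impaired, stood at 169.8 FPKM untreated, 129 FPKM after IFNg, 121 FPKM after IL4, 252 FPKM after MALP2 and 236 FPKM after CpG, with no change of 2-fold. It had no usable status after TNFa, TGFb1 and IL1b and was left out there.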

How the data were processed

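Poly(A) RNA-seq of 8 mouse macrophage libraries was used, 1 per group as labelled. The tools were TopHat 1.3.1, Cufflinks 1.2.1 and Cuffdiff 1.2.1 and the build was mm9, per the submitters' processing notes. The sources used here give no options, read counts or strand handling. The authors deposited 14 tables, 2 per stimulus, with FPKM and its confidence bounds and with the q-value and significance call of each comparison, per the file headers. FPKM divides by length and library total, so abundant transcripts lower the rest.

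Symbols were matched through GENCODE M21. Genes were tested where both libraries had the status OK, 1 FPKM was added before taking log2, and all 33 genes passed the floor of 1 FPKM in every comparison. Untreated values of the 7 tables differ by 1 factor per table, which joined them. Shared 50-base words were counted between transcripts. Members and lists were chosen with earlier results of these data known. All members could be named, and of each context list its counts, with Irf1, Rfx5, Nfe2l1 and the gene highest untreated in each other list; some of what this covers is not reported here. Alternatives tried: 0.1 FPKM added, floors of 5 FPKM and none, centring on the median gene, the other 6 stimulated libraries as reference, the authors' call, bounds apart, and for ratios FPKM + 1 and the untreated median over tables. Added after seeing the data were the inclusion of the ER chaperones, loci with a single identifier, and genes with at most 20% shared words. The counting rule was run on simulated data with known folds and a spread that was set in advance. That run checks how the rule is coded and not its error rate in these data. Scripts ran under Python 3.11.15 with pandas 2.3.3 and numpy 2.4.6, and matplotlib 3.10.9 drew the figures.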

Additional observations from a re-analysis of the deposited data

How the results depend on the processing

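No paired analysis was possible because each group is 1 library. Of the counts of genes at least 2-fold apart, none moved by over 1.5 times with a floor of 5 FPKM or no floor. With FPKM + 1 in both terms, Psmb8 over Psmb5 after IFNg went from 5.42 to 5.37. All ratios stayed within their bounds, which are too wide for that to be a check. The untreated median over tables could not differ, because 1 factor per table cancels in a ratio. With a pseudocount of 0.1 FPKM, IFNg had 10 higher and IL4 2 higher. Centring on the median gene gave IL4 2 higher and 4 lower, TGFb1 1 higher and 5 lower, IL1b 2 higher and 1 lower and CpG 4 higher, with CpG medians of 0.44 (constitutive) and 0.12 (immunoproteasome and class I). Against the other 6 stimulated libraries, higher counts were 0 for TNFa (1.6% of all genes), TGFb1 (3.54%) and IL1b (1.24%). They were 1 for MALP2 (3.24%) and CpG (3.65%), and IL1b had 1 lower (1.12%). Constitutive medians were then 0.11 (IFNg), -0.25 (IL4), 0.10 (TNFa), -0.18 (TGFb1), 0.031 (IL1b), 0.31 (MALP2) and 0.075 (CpG), and immunoproteasome and class I medians 1.62 (IFNg), 0.28 (TNFa), 0.35 (MALP2) and 0.33 (CpG). For TNFa and CpG the immunoproteasome and class I median was thus the higher one, whereas against untreated it was the lower one. For MALP2 the 2 medians were nearly equal by that reference. Requiring the authors' call left 5 higher for IFNg (7.56% of all genes), 2 lower for IL4 (8.14%), 3 lower for TGFb1 (6.58%), and 1 higher (5.33%) and 1 lower (6.59%) for IL1b. Requiring bounds apart left 5 higher for IFNg (6.1%), 2 lower for IL4 (6.57%), 0 higher (4.43%) and 2 lower (5.71%) for TGFb1, 1 higher (4.61%) and 1 lower (5.67%) for IL1b and 1 higher for CpG (5.44%). Among loci with a single identifier, chosen after seeing the data, IFNg had 5 higher, TGFb1 3 lower, IL1b 1 higher, MALP2 2 higher and CpG 1 higher. Without genes sharing over 20% of their words, MALP2 had 2 higher. For the counts with 0.1 FPKM added, with centring, by locus and by shared words, the share over all genes was not computed. Those counts show how the main counts move and are no result about the genes as a group. With the ER chaperones added, immunoproteasome and class I medians were 1.17 (IFNg) and -0.41 (IL1b). Requiring the authors' call or bounds apart, and leaving out loci or genes, can only lower a count by construction. The cause of the other moves was not tested. The lack of replicates and the unknown depth limit all values, and the IFNg library was the shallowest.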

Other observations

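Among genes around the pathway, picked here after their values were seen, Lap3 (leucine aminopeptidase, which trims peptides in the cytosol) went from 42.6 FPKM untreated to 139 FPKM after IFNg, and was at 36.9 to 56.5 FPKM after the other stimuli. It was the single gene of the 6 cytosolic peptidases that was 2-fold higher after IFNg. Thop1, a peptidase that destroys peptides, stood at 9.97 FPKM untreated and was highest after IL4, at 25.4 FPKM. Pdia4, a disulfide isomerase of the ER, stood at 72.2 FPKM untreated, 433 FPKM after IL4 and 66.1 to 94.7 FPKM after the other stimuli. The loading chaperone Pdia3 of the same family stood at 323 FPKM after IL4 against 300.3 FPKM untreated. H2-T24, a class I-like gene, was highest after IFNg (53.5 FPKM) and untreated (40.2 FPKM), with 6.28 to 12.5 FPKM after the other stimuli. None of these differences has a replicate check.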
